A study of Mus musculus with 6 samples.

Results

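Guanylate-binding proteins (GBPs) are large GTPases that cells make in response to interferon. Of the family, 9 gene symbols (Gbp2, Gbp3, Gbp4, Gbp5, Gbp6, Gbp7, Gbp8, Gbp9 and Gbp10) were taken here. They were found by splitting the gene name of every locus in the deposited count table at its commas and keeping each locus that holds one of these symbols. This gave 6 loci of 51499 in all. Gbp2, Gbp3, Gbp5 and Gbp7 each have a locus of their own on chromosome 3, whereas Gbp4, Gbp8 and Gbp9 are joined in a merged locus on chromosome 5 and Gbp10 and Gbp6 are joined there with the predicted gene Gm43302. The fragments of a merged locus cannot be divided among its genes.

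RNA sequencing of poly(A)-selected transcripts compared wild-type (WT) with Yme1l-/- mouse embryonic fibroblasts (MEFs), with 3 cultures per genotype. The comparison asks how transcripts change in cells that lack YME1L, an ATP-dependent protease of the inner mitochondrial membrane encoded by the gene listed as Yme1l1. Both genotypes came from fibroblasts with floxed alleles (Yme1l loxP/loxP) that were immortalized with the SV40 large T antigen, received Cre recombinase and were grown up from individual clones, and clones that kept the floxed gene served as WT. Whether the cultures of a genotype came from the same clone is not stated in the sources used here, so the p-values measure only the spread between these cultures, and differences between genotypes and between clones cannot be told apart. The libraries held between 33180867 and 49351107 fragments in total, and Yme1l1 fell from 188.6 ± 5.16 to 39.1 ± 1.34 counts per 1e6 fragments (CPM, SD, n = 3, log2 fold change −2.27 ± 0.05 SE), with no overlap between the genotypes. Fibroblast markers (11 loci) summed to between 10957.5 and 11514.7 CPM in WT and to between 6720.38 and 7203.39 CPM in Yme1l-/- libraries, with Fn1, Vim and Col1a1 abundant in all libraries and Thy1 and Lum at 11 fragments or fewer in every one.

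GBPs are among the genes induced most strongly by interferon-γ and also respond to type I interferon, through transcription factors that bind 2 kinds of DNA element, the interferon-stimulated response element (ISRE) and the gamma-activated site (GAS). The proteins assemble on the membranes of vacuoles and bacteria in the cytosol, where they break compartments open and feed ligands to inflammasomes. Several GBPs carry a lipid anchor at their C terminus, and mouse GBPs work alongside another interferon-inducible family, the immunity-related GTPases.

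The stretches of 250 bases before the transcription start of the chromosome 3 genes are shown because they can be searched for the letters of both elements. They were taken from RefSeq (GRCm38.p6, plus strand), which gave an entry for 4 of the 9 symbols, and each is written 5′ to 3′ up to the base before the start. Capitals mark matches to the ISRE core (GAAANNGAAA, or TTTCNNTTTC on the other strand) or to the GAS (TTCNNNGAA), searched on both strands.
Gbp2, chr3:142620413-142620662: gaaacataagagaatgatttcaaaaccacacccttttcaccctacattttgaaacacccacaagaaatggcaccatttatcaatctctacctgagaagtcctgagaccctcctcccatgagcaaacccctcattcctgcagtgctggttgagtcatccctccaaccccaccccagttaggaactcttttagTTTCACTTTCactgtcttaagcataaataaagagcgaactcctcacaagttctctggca
Gbp3, chr3:142559794-142560043: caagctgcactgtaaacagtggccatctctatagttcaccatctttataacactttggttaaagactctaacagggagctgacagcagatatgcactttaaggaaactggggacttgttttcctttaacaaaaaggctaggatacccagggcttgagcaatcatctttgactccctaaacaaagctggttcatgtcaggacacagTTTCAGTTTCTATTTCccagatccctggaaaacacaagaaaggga
Gbp7, chr3:142530086-142530335: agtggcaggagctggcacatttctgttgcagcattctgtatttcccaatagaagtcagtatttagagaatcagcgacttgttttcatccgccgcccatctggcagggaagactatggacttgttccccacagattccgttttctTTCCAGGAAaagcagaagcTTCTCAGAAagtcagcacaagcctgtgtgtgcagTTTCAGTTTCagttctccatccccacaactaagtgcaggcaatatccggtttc
Gbp5, chr3:142496684-142496933: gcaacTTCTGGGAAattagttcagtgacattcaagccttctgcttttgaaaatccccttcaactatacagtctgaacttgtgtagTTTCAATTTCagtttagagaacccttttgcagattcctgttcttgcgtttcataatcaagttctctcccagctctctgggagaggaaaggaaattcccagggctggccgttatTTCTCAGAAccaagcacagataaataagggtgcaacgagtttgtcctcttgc

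In Gbp2 the ISRE core lies 59 to 50 bases before the start and no GAS was found. Gbp3 holds 2 ISRE cores that overlap, at 45 to 36 and 39 to 30 bases, and again no GAS. Gbp7 has its ISRE core at almost the same distance (53 to 44 bases) and a pair of GAS matches further out, at 106 to 98 and 87 to 79 bases. Gbp5 differs in arrangement, with the ISRE core at 165 to 156 bases and GAS matches at 245 to 237 and 52 to 44 bases. All distances are to the RefSeq start. The counted locus of Gbp5 begins at 142493978, before its RefSeq start at 142496934, so the printed stretch lies within that locus. The counted loci of Gbp2 and Gbp3 begin at 142620602 and 142560026, inside their printed stretches. The window before a further Gbp3 start (chr3:142560106-142560355) holds neither motif. Among all windows of this length in the same RefSeq table (32851 starts), 2.98% hold the ISRE core, 7.02% the GAS and 0.332% both. A match describes the letters only, and binding was not measured. Promoter entries of Gbp4, Gbp6, Gbp8, Gbp9 and Gbp10 were not used here.

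GBP transcripts were scarce in WT and more abundant in Yme1l-/- MEFs in 5 of the 6 loci. Gbp4/Gbp8/Gbp9 rose 19.5-fold, Gbp10/Gbp6 6.50-fold, Gbp2 6.35-fold, Gbp3 4.88-fold and Gbp7 2.58-fold in mean CPM. Gbp5 was almost absent from all libraries and had fewer fragments in Yme1l-/- than in WT libraries. In bulk RNA a change in the number of cells that express a gene and a change in the RNA per cell cannot be told apart. All folds below are on the scale of CPM, scaled with TMM factors, and each log2 fold change is Yme1l-/- over WT from edgeR's quasi-likelihood test with its standard error (SE) and a Benjamini-Hochberg adjusted p over 13867 tested loci, called when that p is under 0.05. Of all tested loci, 33.6% were called higher and 34.1% lower, and 9.1% were called higher by at least 2-fold. Among the WT cultures, culture 2 stood apart at several GBP loci, and values without it are given where it decides them and together further on.

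**Figure D1:**
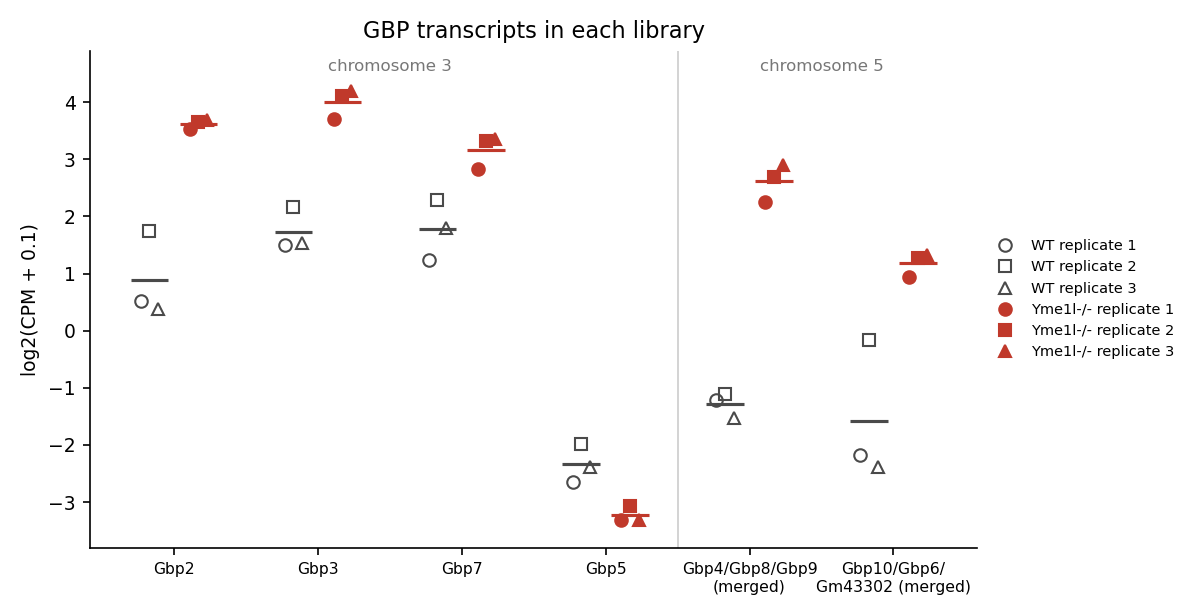
Transcript level of each GBP locus as log2(CPM + 0.1) in each of the 3 WT (open) and 3 Yme1l-/- (filled) libraries, with bars at the mean of these values. The Yme1l-/- points lie above all WT points for 5 loci and below them for Gbp5, and WT replicate 2 (open square) is the highest WT point at every locus.

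Gbp2, which coats vacuoles that hold parasites and bacteria, lies at chr3:142620602-142638008 (mm10). It had 1.33, 3.27 and 1.19 CPM in WT cultures 1 to 3 and 11.5, 12.5 and 12.7 CPM in the Yme1l-/- cultures. The genotypes were far apart, and the WT cultures spread much more than the Yme1l-/- cultures, with a coefficient of variation of 60.1% against 5.32%. Mean levels were 1.93 ± 1.16 CPM in WT and 12.3 ± 0.652 CPM in Yme1l-/- cultures (SD, n = 3), and the log2 fold change was 2.67 ± 0.34 (SE, edgeR adjusted p = 0.000448). Without WT culture 2 it was 3.28, which is the only omission of a culture that moved the fold by over 1.5 times.

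Gbp3 (chr3:142560026-142573209) belongs to the same cluster as Gbp2. It had 2.72, 4.37 and 2.79 CPM in WT and 12.9, 17.1 and 18.1 CPM in Yme1l-/- cultures, again without overlap. Its mean went from 3.29 ± 0.933 to 16.0 ± 2.78 CPM, a log2 fold change of 2.29 ± 0.20 (edgeR adjusted p = 6.22e-06). Gbp7 (chr3:142530342-142550149), which takes part in delivering the oxidase complex to phagosomes, had 2.26, 4.79 and 3.37 CPM in WT and 6.97, 9.89 and 10.1 CPM in Yme1l-/- cultures. Its groups did not overlap, but the highest WT and the lowest Yme1l-/- culture were closer, as a ratio, than for any other tested GBP locus. The mean changed from 3.48 ± 1.27 to 8.98 ± 1.75 CPM, and the log2 fold change of 1.38 ± 0.26 (edgeR adjusted p = 0.00166) was the smallest of the tested members.

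Gbp5 (chr3:142493978-142522344), which promotes assembly of the NLRP3 inflammasome, was at the other end of the scale. WT cultures 1 to 3 gave 2, 5 and 3 fragments, and Yme1l-/- cultures gave 0, 1 and 0. In each library this is close to the 3 counts that a count of 0 allows, which corresponds to between 0.0589 and 0.0918 CPM. Gbp5 did not pass the filter on low counts and was not tested with the other loci. The summed fragments, 1 in Yme1l-/- and 10 in WT, gave a depth-scaled ratio of 0.0722 with an exact 95% interval from 0.00166 to 0.508. PCR copies were not marked in these libraries, so this interval and the floors account for counting error and nothing else. With no filter beyond a total of 1 count Gbp5 was called lower (log2 fold change −3.33, edgeR adjusted p = 0.0229 over 23035 loci), so the absence of lower calls among the tested loci depends on the filter.

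On chromosome 5, the locus that joins Gbp4, Gbp8 and Gbp9 (chr5:105014150-105139586) had the largest change of the family. WT cultures gave 11, 12 and 8 fragments and Yme1l-/- cultures 163, 322 and 376. In CPM these are 0.332, 0.366 and 0.245 against 4.66, 6.38 and 7.38, so that every Yme1l-/- culture lay more than 10-fold above every WT culture. Means of 0.314 ± 0.0626 and 6.14 ± 1.38 CPM corresponded to a log2 fold change of 4.28 ± 0.24 (edgeR adjusted p = 4.28e-08). The locus passed the filter on low counts through its Yme1l-/- level alone, so this p is a description only. The smaller log2 fold change of Gbp7 was reached by 847 (6.11%) of the tested loci.

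Gbp10 and Gbp6, which have been tied to defence against intracellular bacteria, share their locus with Gm43302 (chr5:105214907-105293698). WT cultures gave 4, 26 and 3 fragments and Yme1l-/- cultures 64, 117 and 122. WT culture 2 was 7.47-fold above the mean of the other WT cultures and still below all Yme1l-/- cultures, which had 1.83, 2.32 and 2.39 CPM. With means of 0.335 ± 0.397 and 2.18 ± 0.307 CPM the log2 fold change was 2.70 ± 0.56 (edgeR adjusted p = 0.0030). It was 4.32 without WT culture 2, and between 2.26 and 2.80 under the omission of any other culture, so this culture decides the size of the change. Its adjusted p ranged from 4.00e-06 to 0.0398 over 13 alternative analyses, which is a description only, since the locus passed the filter on low counts through its Yme1l-/- level.

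In all, 5 of the 6 loci were tested and called higher, beside 33.6% of all tested loci, and in the same 5 every Yme1l-/- library lay above every WT library, beside 35.9% of all tested loci. Both chromosome 5 loci passed the filter on low counts only through their level in Yme1l-/- libraries and had to differ to be tested, so this count is a description and supports nothing further. The 3 tested chromosome 3 loci held at least 10 fragments in every library, and with that stricter filter these 3 loci were called higher. Over all 12493 loci tested with that filter, 8528 were called, 50.5% of these higher. A further pair of family loci outside the 9 symbols was at or near 0, as Gbp2b had 0 fragments in all libraries and Gbp11 had 0 in WT libraries and 1, 0 and 1 in Yme1l-/- libraries.

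The spread between cultures had a common form over the family. WT culture 2 was the highest WT culture in 5 of the 5 tested GBP loci, which was the case for 31.8% of all tested loci. It exceeded the mean of the other WT cultures 2.59-fold for Gbp2, 1.59-fold for Gbp3, 1.70-fold for Gbp7 and 1.27-fold for Gbp4/Gbp8/Gbp9. An excess of at least 1.5-fold was found in 4 of these 5 loci and in 565 (4.07%) of all tested loci. Of 9 tested fibroblast markers, 3 reached such an excess, namely Dcn (5.01-fold), Col3a1 (3.40-fold) and Pdgfra (1.63-fold), while the others lay between 0.901 for Col1a1 and 1.12 for Pdgfrb and the median was 1.10. Of 8 immunity-related GTPase loci, 2 did, Iigp1 (4.52-fold) and Ifi47,Olfr56 (2.72-fold), and the other 6 lay between 0 for Tgtp2 and 1.18 for Igtp,Irgm2, with a median of 0.955 over the list. Casp4 (1.97-fold) was the single such locus of 3 inflammasome partners and Nlrc5 (1.84-fold) of 14 interferon signalling loci. What these share with the GBP levels of that culture was not tested. Measured against WT culture 2 alone, the Yme1l-/- mean was 3.75-fold higher for Gbp2, 3.67-fold for Gbp3, 1.87-fold for Gbp7, 16.8-fold for Gbp4/Gbp8/Gbp9 and 2.75-fold for Gbp10/Gbp6. Without this culture the log2 fold changes were 3.28 for Gbp2, 2.54 for Gbp3, 1.68 for Gbp7, 4.40 for Gbp4/Gbp8/Gbp9 and 4.32 for Gbp10/Gbp6. In the Yme1l-/- group, culture 1 was the lowest culture in the same 5 loci (41.2% of all tested loci) and had the smallest library of that genotype.

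**Figure D2:**
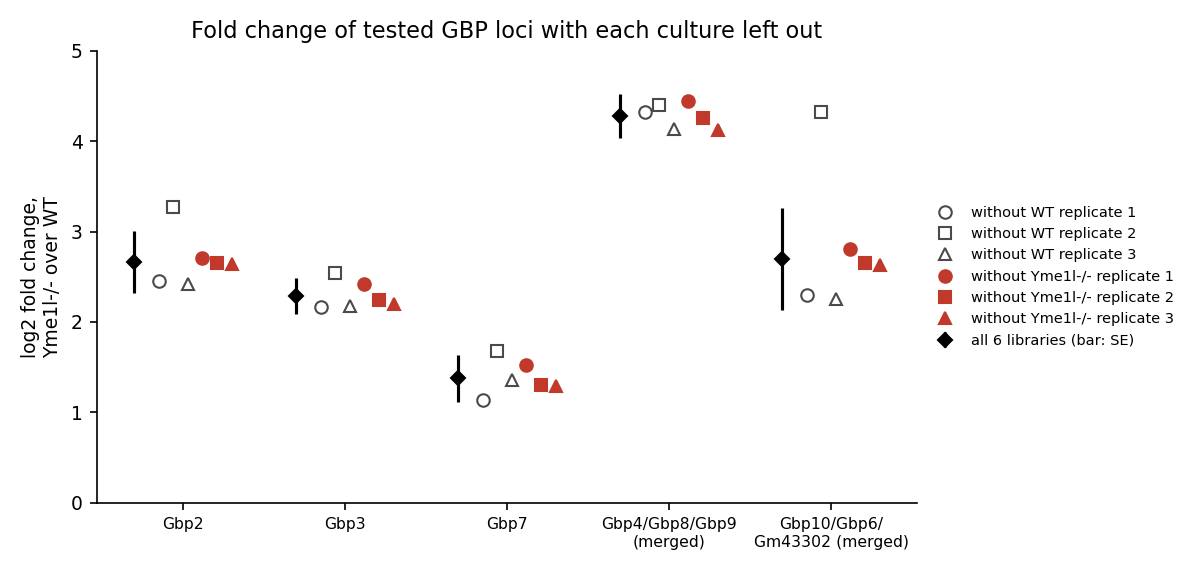
Log2 fold change (Yme1l-/- over WT) of the 5 tested GBP loci with all 6 libraries (diamond, bar = SE) and with each culture left out in turn (other symbols). Leaving out WT replicate 2 (open square) moves Gbp10/Gbp6 to 4.32 and Gbp2 to 3.28, while no value falls below the 1.14 of Gbp7.

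Levels of different loci were compared per kilobase of annotated exon (CPM per kb, GENCODE M21 exons of all genes of a locus). In Yme1l-/- cultures the order was Gbp3 (4.91 ± 0.852), Gbp2 (4.87 ± 0.259), Gbp7 (1.60 ± 0.311), Gbp4/Gbp8/Gbp9 (0.384 ± 0.0861), Gbp10/Gbp6 (0.205 ± 0.0289) and Gbp5 (0.000996 ± 0.00172). Gbp3 and Gbp2 overlapped, and every other neighbour in this order was separated in all cultures. In WT cultures Gbp3 (1.01 ± 0.286), Gbp2 (0.767 ± 0.461) and Gbp7 (0.619 ± 0.226) overlapped with each other and lay above Gbp10/Gbp6 (0.0316 ± 0.0374), Gbp4/Gbp8/Gbp9 (0.0197 ± 0.00392) and Gbp5 (0.0153 ± 0.00707), which overlapped in turn. Gbp4/Gbp8/Gbp9, with the largest fold change, lay below Gbp3, Gbp2 and Gbp7 per length of the whole locus in both genotypes. The length of a merged locus joins the exons of all its genes (15989 bases for Gbp4/Gbp8/Gbp9 and 10619 for Gbp10/Gbp6). Its value is therefore not the level of any single gene, and the place of a single gene in this order is not known. The authors' FPKM, which are combined per genotype and carry no SD, gave 1.30 and 6.89 for Gbp3 in WT and Yme1l-/-, 0.897 and 5.08 for Gbp2, 0.893 and 2.57 for Gbp7, 0.141 and 1.80 for Gbp4/Gbp8/Gbp9 and 0.102 and 0.859 for Gbp10/Gbp6. The order of the last pair in WT differs between FPKM and mean CPM per kb, and in the latter it rests on WT culture 2. Gbp10/Gbp6 had 0.0114, 0.0748 and 0.00865 CPM per kb in WT cultures 1 to 3 and Gbp4/Gbp8/Gbp9 had 0.0208, 0.0229 and 0.0153, so Gbp10/Gbp6 was the lower of the pair in cultures 1 and 3.

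GBP genes are similar enough that fragments could be exchanged between copies, and the sources used here do not state how reads with several matches were counted. The coding sequences of Gbp6 and Gm43302 share 99.9% of aligned bases and those of Gbp10 and Gbp6 share 98.4%. Those of Gbp7 and Gbp3 share 78.3%, whereas Gbp2 and Gbp3 share 62.7%. In the comparison of 100-base windows in GENCODE transcripts, Gm43302 was counted as a GBP gene. Of these windows, 73.5% of those of Gbp10 and 64.5% of those of Gbp6 occur in another GBP gene, nearly all of it within their own merged locus. Windows shared with a GBP gene of another locus were between 0.211% and 3.22% for the chromosome 5 members, 0.428% for Gbp7, 0.694% for Gbp3 and 0 for Gbp2 and Gbp5. A further 9.59% of the Gbp7 windows occur in Gm43802, a processed pseudogene inside the span of Gbp7, so a fragment there could belong to either. Sums over a cluster are not changed by exchange within it. The chromosome 3 members together had 8.80 ± 3.32 CPM in WT and 37.3 ± 5.17 in Yme1l-/- cultures (log2 ratio 2.08, no test), and the chromosome 5 members together 0.650 ± 0.446 and 8.32 ± 1.68 CPM (log2 ratio 3.68, and 4.40 without WT culture 2). The chromosome 5 cluster rose by the larger factor and stayed the smaller in level.

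Of the 3 nearest tested loci on each side of the clusters, a single locus had a log2 fold change within the range of the GBP loci. Next to the chromosome 3 cluster (175.1 kb), Pdlim5 (0.17 ± 0.05), Kyat3 (0.29 ± 0.12) and Gtf2b (0.24 ± 0.06) had small positive log2 fold changes. Of these the call of Kyat3 (edgeR adjusted p = 0.0490) was lost in 8 alternative analyses, in which its adjusted p reached 0.179. Farther out, 9530052C20Rik was lower (−1.37 ± 0.40), at 18, 14 and 14 fragments in WT and 10, 6 and 8 in Yme1l-/- libraries. Unc5c had a log2 fold change of −5.86 (−6.57 without Yme1l-/- culture 3), and Bmpr1b went from 28, 28 and 27 fragments in WT to 2, 0 and 0. All of these lower loci passed the filter on low counts only through their WT level, so their values are a description only. Beside the chromosome 5 cluster (332.3 kb), the locus within the range of the GBP loci was the zinc finger gene Zfp951, at a distance of 154.1 kb. It had 4.05 ± 0.0513 CPM in WT and 16.4 ± 0.809 CPM in Yme1l-/- cultures (log2 fold change 2.02 ± 0.09, edgeR adjusted p = 5.18e-09). On the other side the volume-regulated anion channel gene Lrrc8b, at 69.3 kb, was not called (−0.06 ± 0.07, edgeR adjusted p = 0.469, and 0.01 without WT culture 2), while Lrrc8c (−2.57 ± 0.04) and Lrrc8d (−0.76 ± 0.08) fell. D930016D06Rik (−0.28 ± 0.10, a call that was lost in 5 alternative analyses) and Gm8258 (0.27 ± 0.35, not called) lay beyond Zfp951. The median log2 fold change was −0.12 over 714 tested loci of chromosome 3 and 0.014 over 926 of chromosome 5.

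**Figure D3:**
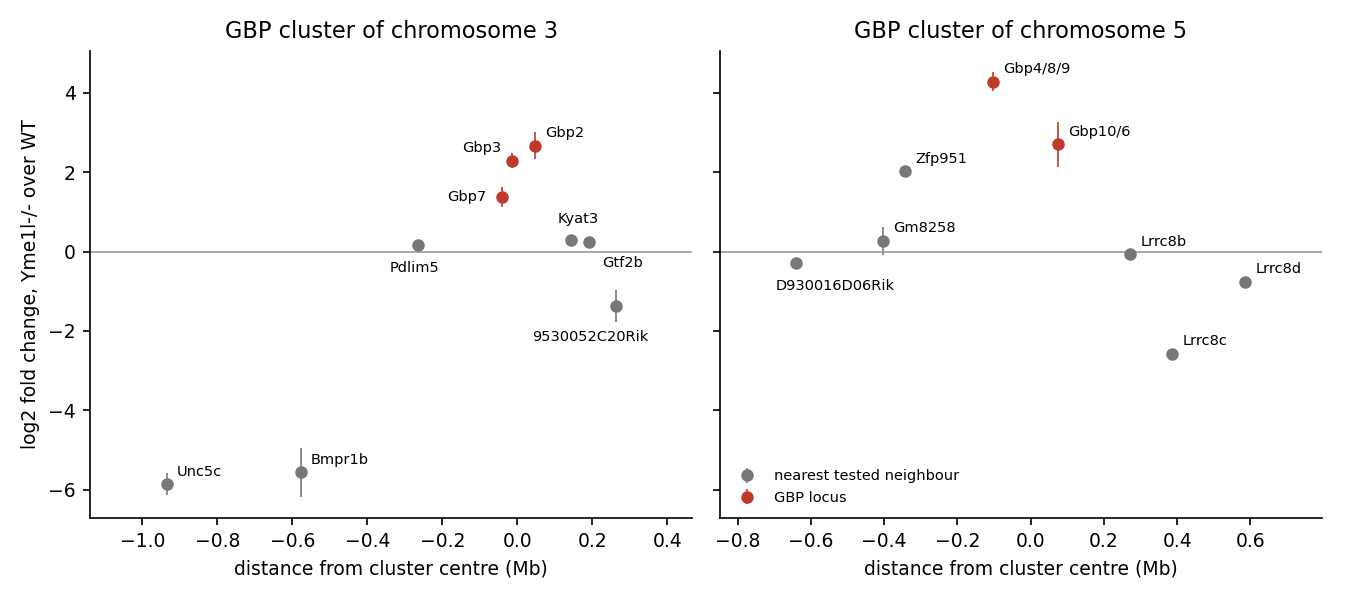
Log2 fold change (Yme1l-/- over WT, bars = SE) of the tested GBP loci and of the 3 nearest tested loci on each side, against distance in Mb from the centre of each cluster. The GBP loci lie at 1.38 to 4.28 and the neighbours at 2.02 (Zfp951) or below, and the fitted value of Bmpr1b rests on at most 2 fragments per Yme1l-/- library.

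Genes of the pathway that leads from interferon to GBP genes were described next (interferons, receptors, kinases and transcription factors, with 14 tested loci of 16). Of these, 10 rose, 3 fell and 1 was not called, beside 33.6% called higher and 34.1% lower of all tested loci. Their median log2 fold change was 0.53, beside −0.0041 over all tested loci. Of the 3 lower loci, the kinase gene Tyk2 (−0.17 ± 0.06) lost its call in 8 alternative analyses and was called higher (0.19, edgeR adjusted p = 0.0232) with chromosome medians removed. Nlrc5, the transactivator of MHC class I genes, rose from 3.23 ± 1.22 to 23.2 ± 1.37 CPM (log2 fold change 2.84 ± 0.21, edgeR adjusted p = 5.26e-06). Stat2 (1.76 ± 0.08) and Irf1 (1.43 ± 0.06), which encode factors that act on ISRE elements, rose as well. Irf1, itself a direct GAS target, went from 31.0 ± 2.47 to 83.5 ± 4.05 CPM. Irf2, which competes with IRF1 for ISRE sites, had a log2 fold change of −0.08 ± 0.07 and was not called, but it was called higher (0.23, edgeR adjusted p = 0.00993) once the median of its chromosome was removed. Socs1, an inhibitor of JAK kinases, fell by 0.87 (SE 0.18). The ligand Ifng had 0 fragments in all libraries and Ifnb1 had at most 1 in any.

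The immunity-related GTPases, the family that shares target membranes with GBPs, had 8 tested loci. Of these 7 rose and 1 fell (median log2 fold change 1.68), beside 33.6% called higher and 34.1% lower of all tested loci. Of the 7, 4 (Tgtp2, Ifi47,Olfr56, Iigp1 and Gm12250) passed the filter on low counts only through their Yme1l-/- libraries, so neither the count nor the median supports anything further. Tgtp2, an effector GTPase, had 1, 0 and 2 fragments in WT and 69, 102 and 110 in Yme1l-/- libraries, at least 22.3-fold higher when 3 counts are set as the floor of a WT library. It is close in sequence to Tgtp1, so its own level is uncertain. The merged loci Ifi47,Olfr56 (3.56 ± 0.28) and Igtp,Irgm2 (2.82 ± 0.09) and the regulator Irgm1 (1.72 ± 0.05) followed, and Ifi47,Olfr56 was at 4.20 without WT culture 2. With chromosome medians removed, Ifi47,Olfr56 was at 3.20, Igtp,Irgm2 at 2.46 and Irgm1 at 1.36, while Iigp1 moved the other way, to 1.84. Irgm1 was the most abundant, at 29.8 ± 0.559 CPM in WT and 98.3 ± 2.38 CPM in Yme1l-/- cultures. Irgq fell by 0.36 (SE 0.06). The calls of Iigp1 (1.64 ± 0.50) and Gm12250 (1.37 ± 0.46) were lost in 2 and 5 alternative analyses, and Iigp1 was at 2.73 without WT culture 2. With at least 10 counts in every sample 3 loci of the family were called higher, beside the calls over all loci given above for that filter.

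**Figure D4:**
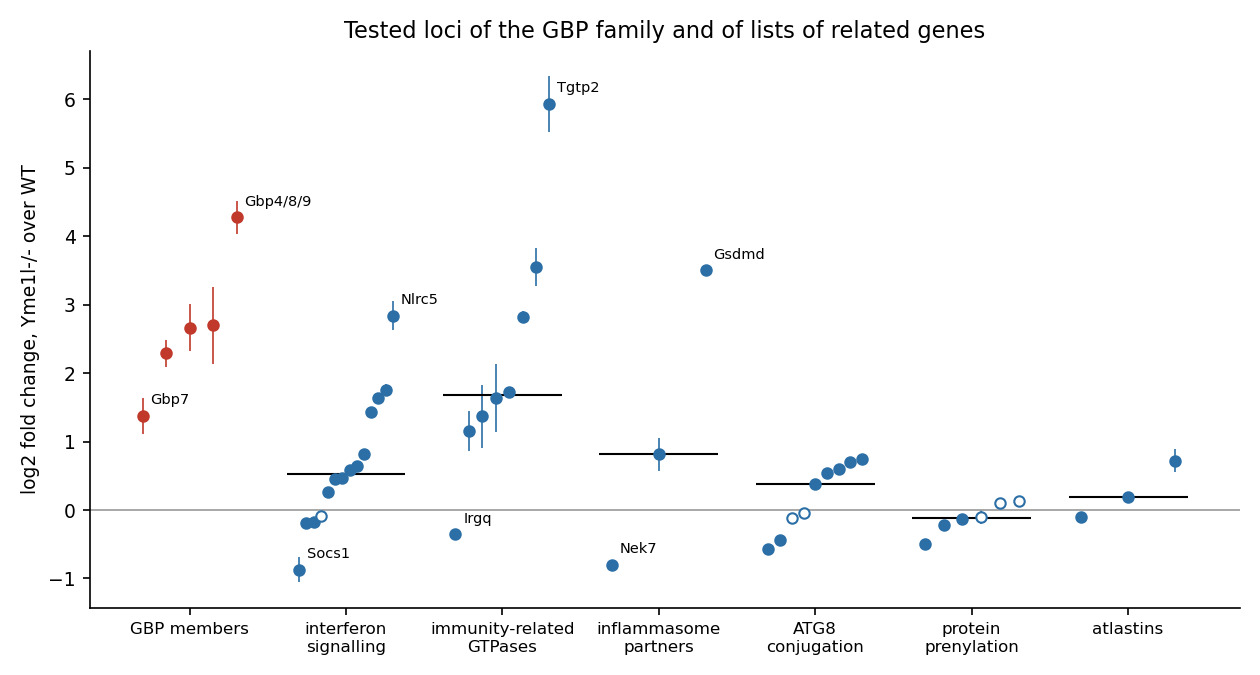
Log2 fold change (Yme1l-/- over WT, bars = SE) of every tested locus of the GBP members and of 6 lists of related genes, with filled points for calls and open points for loci not called, and black lines at the median of each of the 6 lists. Tested GBP loci lie between 1.38 and 4.28, and single loci of other lists lie within or above this range, up to 2.84 for interferon signalling (Nlrc5), 3.50 for inflammasome partners (Gsdmd) and a fitted 5.93 for immunity-related GTPases (Tgtp2, with at most 2 fragments in a WT library).

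Of the inflammasome partners, 3 of 9 loci were tested. Gsdmd, the pore-forming protein cut downstream of GBP-dependent inflammasomes, had 3.31 ± 0.0985 CPM in WT and 37.5 ± 0.841 CPM in Yme1l-/- cultures (log2 fold change 3.50 ± 0.07, edgeR adjusted p = 1.64e-11). Casp4, which encodes caspase-11 (the sensor of lipopolysaccharide in the cytosol), rose from 2.85 ± 1.20 to 5.01 ± 0.423 CPM (0.81 ± 0.24, edgeR adjusted p = 0.0125), and Nek7, a cofactor of NLRP3, fell by 0.80 (SE 0.05). Together 2 of these rose and 1 fell, beside 33.6% called higher and 34.1% lower of all tested loci. Pycard and Il1b had 0 fragments in all libraries, Casp1, Nlrp3 and Aim2 had at most 5 in any, and Il18 had at most 3 in WT and 2, 13 and 18 in Yme1l-/- libraries.

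GBPs and immunity-related GTPases are directed to vacuoles by the proteins that conjugate ATG8 family members, and a part of the GBP family is anchored by prenylation. The counts of the lists that follow stand beside 33.6% called higher and 34.1% called lower of all tested loci. Of 9 tested ATG8 conjugation loci, 5 rose, 2 fell and 2 were not called (median 0.38). Gabarapl1 (0.75 ± 0.06), Atg7 (0.71 ± 0.07) and Atg5 (0.59 ± 0.06) were higher and Map1lc3a was lower (−0.57 ± 0.07). Gabarapl2 (−0.05 ± 0.06) and Atg12 (−0.11 ± 0.06) were not called. With chromosome medians removed Gabarapl2 was called higher (0.26, edgeR adjusted p = 0.00305), and Atg12 was positive (0.0941) and not called. Of 6 prenylation loci none was called higher at an adjusted p under 0.05 and 3 were lower (median −0.12), namely the merged locus Churc1,Fntb (−0.49 ± 0.05), Fnta (−0.22 ± 0.05) and Zmpste24 (−0.13 ± 0.04). None of these calls held with chromosome medians removed, where Churc1,Fntb was at −0.06 (edgeR adjusted p = 0.282), Fnta at 0.09 (0.148) and Zmpste24 at −0.03 (0.532), and Zmpste24 lost its call in 6 alternative analyses in all. The other 3 prenylation loci were Icmt (0.10 ± 0.05, called higher in 3 alternative analyses), Rce1 (0.13 ± 0.06, called higher in 2) and Pggt1b (−0.10 ± 0.10), and the sign of Pggt1b changed with chromosome medians removed or without Yme1l-/- culture 1. The atlastins, GTPases of the same superfamily that fuse endoplasmic reticulum membranes, had 2 higher loci, Atl1 (0.72 ± 0.17) and Atl3 (0.19 ± 0.05, and 0.07 with an edgeR adjusted p of 0.291 once chromosome medians were removed), and 1 lower, Atl2 (−0.11 ± 0.04, a call that was lost in 9 alternative analyses).

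Markers of cells that express GBPs at high levels were measured beside these results. The macrophage and leukocyte list (10 loci) summed to between 4.17 and 4.52 CPM in WT and to between 7.37 and 8.02 CPM in Yme1l-/- libraries, and its 2 tested loci, Cd68 (1.04 ± 0.14) and Cd14 (0.37 ± 0.14), rose. Among its untested members, Lyz2 (0, 2 and 0 against 12, 8 and 11 fragments), Csf1r (3, 2 and 5 against 11, 20 and 11) and Itgam (4, 4 and 2 against 9, 14 and 29) also had more fragments in every Yme1l-/- library than in any WT library. The other members were Adgre1 and Tyrobp, with 0 fragments in all libraries, and Ptprc, Aif1 and Spi1, with at most 1 in any. The endothelial list (6 loci) summed to between 0.949 and 1.56 CPM in WT and to between 1.94 and 2.17 in Yme1l-/- libraries. Its single tested member Kdr rose (0.72 ± 0.22, edgeR adjusted p = 0.0132), Pecam1 had 0, 0 and 1 fragments in WT and 3, 6 and 10 in Yme1l-/- libraries, and Emcn had 0 in all. Vwf had 0, 4 and 2 fragments in WT against 11, 6 and 14, whereas Cdh5 (0, 5 and 1 against 2, 0 and 0) and Tek (6, 2 and 2 against 3, 1 and 2) had fewer in Yme1l-/- libraries in sum. The epithelial list (6 loci) summed to between 33.1 and 35.1 CPM in WT and to between 0.373 and 0.686 in Yme1l-/- libraries, most of the WT level being Krt18. The fibroblast list had 7 lower, 1 higher and 1 uncalled of 9 tested loci, beside 34.1% lower and 33.6% higher of all tested loci. The part of these marker differences in the GBP levels was not tested.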

How the data were processed

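The authors prepared stranded poly(A) libraries, mapped paired reads to mm10 (GRCm38) with HISAT2 2.0.4, assembled transcripts with StringTie 1.3.3 and compared genotypes with Cufflinks (Cuffdiff 2.2.1), per the submitters' processing notes. The deposited count table holds raw fragment counts per assembled locus, not normalized, and the counting tool is not given in the sources used here. Overlapping transcripts were joined by the authors into 635 loci with several symbols. The deposited comparison table holds FPKM as 1 combined value per genotype, which was used for description and for coordinates, and its fold changes and p-values were not used.

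In R 4.3.3, edgeR 4.0.16 was applied to the counts: filterByExpr (minimum count 10) left 13867 loci, libraries were scaled by TMM, and the genotypes were compared with a robust quasi-likelihood fit, two-sided, without covariates, with Benjamini-Hochberg adjustment over all tested loci and calls at an adjusted p under 0.05. Total depth was between 33180867 and 49351107 fragments. The 3 counts allowed by a count of 0 were taken per library. Genes described with values in a list were its called loci with the 4 largest changes and at most 3 uncalled loci of at least 10 CPM. Ifng, Ifnb1, Tyk2, Socs1, Irgq, Iigp1, Gm12250, the untested inflammasome genes, Icmt, Rce1 and the marker genes were named after their values were seen. The GBP members, the lists and these rules were chosen with earlier results of these data known. Of the lists, 3 symbols without a locus of their own were not analysed here, and values of a further list member are not reported here.

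Alternatives were RLE and upper-quartile scaling, DESeq2 1.42.0, the replicate number as a block, a looser filter (a total of 1 count) and a stricter one (10 counts in every sample), leaving out each culture, removal of chromosome medians, and thinning to the smallest library. No pair of libraries agreed within sampling noise (chi-square per degree of freedom at least 8.45). Transcript windows, coding sequences and exon lengths came from GENCODE M21, and promoters from RefSeq GRCm38.p6.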

Additional observations from a re-analysis of the deposited data

How the results depend on the processing

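Gbp2, Gbp3 and Gbp7 stayed higher and called under every alternative listed above, with log2 fold changes from 2.42 to 3.28, 2.17 to 2.54 and 1.14 to 1.68. Where tested, Gbp4/Gbp8/Gbp9 ranged from 4.13 to 4.44 and Gbp10/Gbp6 from 2.26 to 4.32, which says nothing of their stability, since both entered the test through their Yme1l-/- level. With at least 10 counts in every sample, both chromosome 5 loci left the test, so 3 GBP loci were called higher and 3 immunity-related GTPases. In that setting 8528 of 12493 loci were called, 50.5% of these higher. With no filter beyond a total of 1 count, 1 GBP locus (Gbp5) was called lower. The deviations of same-numbered cultures had correlations of 0.198, −0.158 and 0.0482, and 2 of 6 cultures correlated best with their own number. With 3 cultures per genotype these values cannot show whether same-numbered cultures shared a batch. The replicate block gave 2.73 for Gbp2, 2.29 for Gbp3, 1.40 for Gbp7, 4.26 for Gbp4/Gbp8/Gbp9 and 2.80 for Gbp10/Gbp6, with 9794 calls over all loci against 9387, and 2 higher prenylation loci. Upper-quartile scaling also gave 2 higher prenylation loci, moved the median of all loci to 0.0552, turned Gabarapl2 to 0.0106 and raised the share of calls that were higher from 49.6% to 55.1%. With chromosome medians removed, prenylation had 1 higher and 0 lower loci and the atlastins 1 higher, and Tyk2 (0.19), Irf2 (0.23), Atg12 (0.0941), Gabarapl2 (0.26), Fnta (0.0920) and Pggt1b (0.0992) changed sign. The number of lower atlastins, 1 in the analysis reported, was 0 with upper-quartile scaling, DESeq2, no filter or thinning, and between 0 and 1 with a culture left out. With a culture left out, Pggt1b ranged from −0.21 to 0.00807 (without Yme1l-/- culture 1) and Lrrc8b from −0.12 to 0.0139 (without WT culture 2). The causes were not tested, apart from loci leaving or entering the test. Of 320 alternative values for counts, Yme1l1, GBP loci and cluster sums, 303 kept their direction and call and 17 moved. A count of loci was taken as kept when it lay within 1.5 times of the reported one. The tally includes the chromosome 5 loci and the counts that hold them, so it is no measure of the stability of the GBP results. Among the lists, the counts that changed within this limit when a culture was left out were those of the lower interferon signalling loci (2 to 3), the lower prenylation loci (2 to 3) and the higher immunity-related GTPases (6 to 7). Of 762 for the 55 other genes, 703 did, 45 lost a call, 5 gained one and 9 changed sign. Over all loci, between 4259 and 5168 were called higher and between 4204 and 5155 lower. Depth limits Gbp5, Gbp11 and Gbp2b, at 5 fragments or fewer per library, and the WT levels of the chromosome 5 loci.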
